A study of Homo sapiens with 6 samples.

Results

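The cold-shock domain family was followed in PANC-1, a human cell line from a pancreatic ductal carcinoma, as 6 named genes among the 42902 genes of the count table. The members were the Y-box genes YBX1, YBX2 and YBX3, the small RNA-binding gene CARHSP1, and the paralogs LIN28A and LIN28B, each matched by its NCBI Gene ID. The rule that defines them is by name, and it was set with earlier results of these data known. Cells carrying a short hairpin RNA against RRM2 (shRRM2, 3 libraries) were compared with cells carrying a non-targeting hairpin (shNC, 3 libraries), both in the same PANC-1 background. The labels name neither the number of hairpins nor separate cultures, so the p-values cover only how these libraries vary, and that variation may be technical. The study's title links RRM2 to the stability of YBX1, and the counts here measure RNA and not protein.

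The cold-shock domain is an ancient nucleic-acid-binding fold shared with the bacterial cold-shock proteins. YBX1 binds mRNA throughout the cytoplasm, packs it into ribonucleoprotein particles, and is also described as a transcription factor. YBX3 (ZONAB) shuttles between tight junctions and the nucleus, and YBX2 is best known from germ cells, where it stores and represses mRNA. CARHSP1 is a small protein that binds and stabilises transcripts, and the LIN28 proteins block the maturation of the let-7 microRNAs in embryonic cells and in some tumours.

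The Y-box genes take their name from the Y box, a promoter element built around CCAAT in reverse. The promoter windows of the 3 Y-box genes are shown because each holds CCAAT or its reverse complement. This short word is the core of the Y box and not the whole element. Windows run from 250 bases before to 50 after a gene start, come from RefSeq on GRCh38.p14, and are written 5′ to 3′ on the gene's own strand. Capitals mark CCAAT or its reverse complement ATTGG.
YBX1, chr1:42682168-42682467, plus strand: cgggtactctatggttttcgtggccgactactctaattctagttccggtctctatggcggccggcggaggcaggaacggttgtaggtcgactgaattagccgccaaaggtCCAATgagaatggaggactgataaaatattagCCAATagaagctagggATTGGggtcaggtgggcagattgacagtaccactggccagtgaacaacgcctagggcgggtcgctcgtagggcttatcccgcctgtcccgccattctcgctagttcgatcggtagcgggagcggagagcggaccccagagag
YBX2, chr17:7294590-7294889, minus strand: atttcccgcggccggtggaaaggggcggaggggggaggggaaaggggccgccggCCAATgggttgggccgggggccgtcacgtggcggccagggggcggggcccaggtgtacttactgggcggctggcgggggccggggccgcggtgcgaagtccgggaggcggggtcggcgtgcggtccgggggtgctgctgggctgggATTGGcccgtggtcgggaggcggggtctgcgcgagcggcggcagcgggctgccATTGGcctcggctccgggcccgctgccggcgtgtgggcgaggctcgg
YBX3, chr12:10723274-10723573, minus strand: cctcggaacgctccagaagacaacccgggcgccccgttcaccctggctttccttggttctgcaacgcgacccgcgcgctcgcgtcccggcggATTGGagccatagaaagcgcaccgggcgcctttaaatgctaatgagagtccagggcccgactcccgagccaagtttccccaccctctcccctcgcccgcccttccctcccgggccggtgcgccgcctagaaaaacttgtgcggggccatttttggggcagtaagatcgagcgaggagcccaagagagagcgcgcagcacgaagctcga
The YBX1 and YBX2 windows held 3 matches each and the YBX3 window held 1. Of 35116 promoter windows of the same length, 34.6% held at least 1 match and 10.8% held 2 or more. None of the 5 windows of CARHSP1 held either word. Of the 2 windows of LIN28B, 1 held a single match, and LIN28A had no entry in the table. A match describes these letters and not bound protein.

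Library totals ran from 16606947 to 23300433 counts. RRM2, the small subunit of ribonucleotide reductase and the target of the hairpin, stood at 39.6 to 40.7 CPM (counts scaled to the size of the library) in shRRM2 and at 192 to 204 CPM in shNC. Library sizes were adjusted by TMM (trimmed mean of M-values), and fold changes are shRRM2 over shNC from edgeR's quasi-likelihood test, with p-values adjusted by Benjamini-Hochberg over 15866 tested genes and a threshold of 0.05. In that test 52.1% of the tested genes passed, 26.0% higher and 26.1% lower in shRRM2, so a call on its own is common in these libraries. The groups of CPM did not overlap for 57.8% of the tested genes. The epithelial keratins KRT8, KRT18 and KRT7 were abundant, with means of 674 to 1636 CPM in shRRM2 and 707 to 1081 CPM in shNC, while KRT19 had at most 6 counts in a library and EPCAM averaged 0.697 CPM in shRRM2 and 0.261 CPM in shNC. CDH1, another epithelial marker, averaged 2.36 CPM in shRRM2 and 0.860 CPM in shNC. Of the 6 epithelial markers, 5 passed the filter on low counts, with 4 called higher and 1, KRT7, called lower. The KRT7 groups overlapped, and its call was lost when library size alone was used. Of 6 fibroblast and 5 endothelial markers, 2 and 2 passed the filter on low counts, and all 4 of these were called higher. PDGFRB, a fibroblast marker, averaged 28.6 CPM in shRRM2 and 9.10 CPM in shNC, while the 7 fibroblast and endothelial markers below the filter had 0 to 10 counts in a library. Of the immune markers below the filter, CD14 had 4 to 14 counts in a library and PTPRC, LYZ and CD3E had 0 to 3. The part of other cell types in the results was not tested, and in such bulk libraries fewer cells of a type and less RNA per cell cannot be told apart.

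Of the 6 members, 4 were detected and each of these was called in shRRM2, 1 as higher and 3 as lower, beside backgrounds of 26.0% higher and 26.1% lower. YBX2 rose, CARHSP1 and YBX3 fell, and YBX1 fell by the smallest amount. LIN28A and LIN28B had no count in any library. Levels per kb of the longest protein-coding transcript in GENCODE 29 put YBX1 first, at 535 CPM per kb in shRRM2 and 570 CPM per kb in shNC. YBX3 followed at 159 CPM per kb in shRRM2 and 190 in shNC. CARHSP1 had 18.4 CPM per kb in shRRM2 and 26.6 in shNC, and YBX2 had 5.26 in shRRM2 and 2.97 in shNC. Neighbours in this order differed far beyond the spread between libraries, and the order was the same in both groups.

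**Figure D1:**
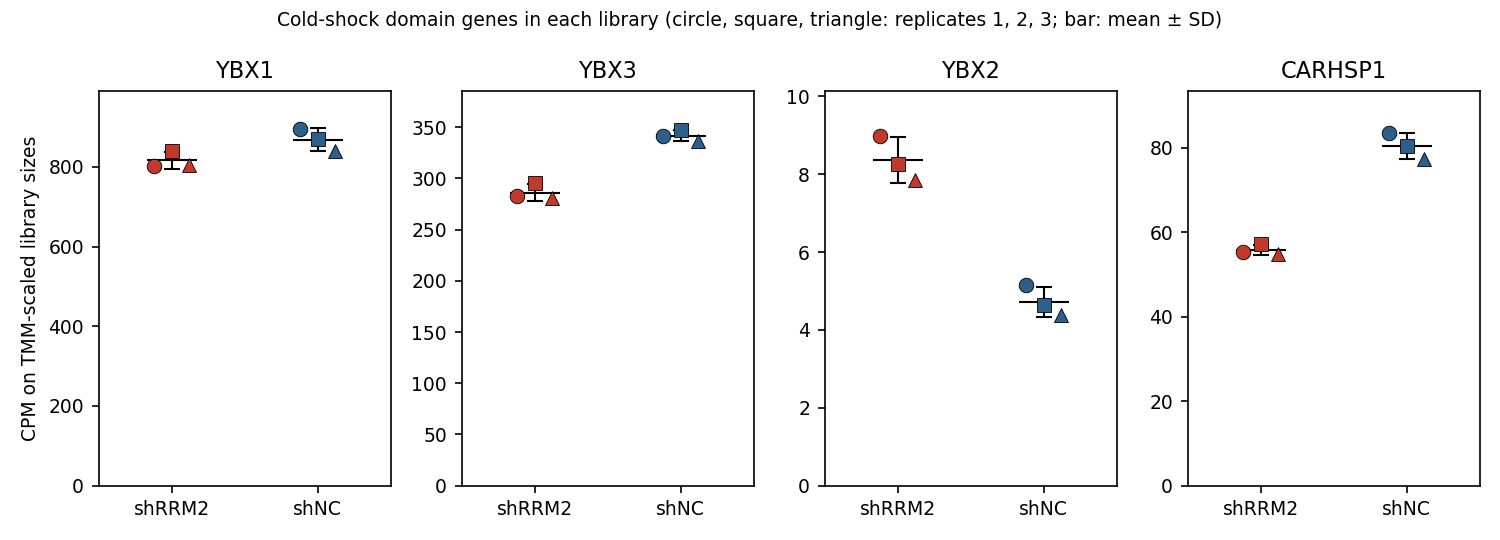
CPM on TMM-scaled library sizes (vertical axes, each from 0 and on its own scale) of the 4 detected cold-shock domain genes in the 3 shRRM2 and 3 shNC libraries. Points are libraries and bars are mean ± SD; the YBX1 groups nearly touch, at 841 CPM, while the YBX2 groups are 2.701 CPM apart.

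YBX1 (Gene ID 4904, chr1:42682418-42703805, plus strand, GRCh38.p14) was among the abundant transcripts of the cells. It had 14181, 16697 and 14580 counts in the shRRM2 libraries and 15687, 20031 and 13839 counts in the shNC libraries. On the TMM scale these were 802, 841 and 805 CPM in shRRM2, against 896, 869 and 841 CPM in shNC. The highest shRRM2 library and the lowest shNC library were 0.0354 CPM apart. edgeR put YBX1 at −0.09 on the log2 scale (SE 0.0294) with an adjusted p of 0.0104. This is 94.0% of the shNC level, with a 95% interval of 90.1% to 97.9%. The change was smaller than that of most genes, since 19.0% of the tested genes had a change of the same size or smaller. When library size alone was used, the shRRM2 libraries stood at 814, 847 and 819 CPM and the shNC libraries at 877, 861 and 834 CPM. The groups then overlapped and YBX1 did not pass (log2 fold change −0.05, adjusted p = 0.102). The call was also lost when any of 3 single libraries was left out. The adjusted p was 0.0657 without shRRM2 replicate 1 and 0.0711 without shRRM2 replicate 3. It was 0.0664 when shNC replicate 1 was the one removed.

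YBX3 (Gene ID 8531, chr12:10699089-10723323, minus strand), the ZONAB gene of tight junctions, fell. Its level was 282, 295 and 281 CPM in the shRRM2 libraries and 342, 347 and 336 CPM in the shNC libraries. Every shRRM2 library lay below every shNC library, with a gap of 40.9 CPM between the nearest 2. Its log2 fold change came to −0.26 with an SE of 0.0323 and an adjusted p of 3.85e-08, or 83.8% of the shNC level with a 95% interval of 80.0% to 87.7%. The size was ordinary for this comparison, with 49.4% of tested genes at the same size or smaller.

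CARHSP1 (Gene ID 23589, chr16:8852942-8869006, minus strand), whose protein binds and stabilises TNF mRNA, fell the most of the 4 detected members. It had 980, 1135 and 992 counts in shRRM2 and 1464, 1856 and 1274 counts in shNC. These were 55.4, 57.1 and 54.8 CPM in shRRM2, against 83.7, 80.5 and 77.4 CPM in shNC. The groups were separated by 20.25 CPM, several times the SD within either group (1.21 CPM in shRRM2 and 3.13 CPM in shNC). Its log2 fold change came to −0.53 with an SE of 0.0510 and an adjusted p of 1.28e-10, or 69.3% of the shNC level with a 95% interval of 64.5% to 74.5%. GENCODE 29 places 2 antisense genes on the other strand of CARHSP1, and they are not analysed here. The strand setting of the counting is not given in the sources used here, so their reads cannot be told apart from those of CARHSP1.

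YBX2 (Gene ID 51087, chr17:7288263-7294639, minus strand) was the least abundant detected member and the only one of the 4 that rose. It had 159, 164 and 142 counts in shRRM2, against 90, 107 and 72 counts in shNC. Its level was 8.995, 8.26 and 7.84 CPM in the shRRM2 libraries and 5.14, 4.64 and 4.37 CPM in the shNC libraries. The lowest shRRM2 library lay 2.701 CPM above the highest shNC library. Its log2 fold change came to 0.82 with an SE of 0.149 and an adjusted p of 1.96e-05, or 177% of the shNC level with a wide 95% interval of 143% to 219%. Of the tested genes, 90.1% had a change of the same size or smaller. SLC2A4, a glucose transporter gene on the opposite strand whose end overlaps YBX2 in GENCODE 29, had 6, 8 and 5 counts in shRRM2 and 15, 32 and 13 counts in shNC, and was called lower at −1.58.

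LIN28A (Gene ID 79727, chromosome 1) and LIN28B (Gene ID 389421, chromosome 6) had 0 counts in all 6 libraries. At these depths 3 counts correspond to 0.152 to 0.172 CPM in the shRRM2 libraries and 0.129 to 0.181 CPM in the shNC libraries, which is the level that a count of 0 allows for counting error alone. The antisense gene LIN28B-AS1 was also at 0 in every library.

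The directions of YBX2, YBX3 and CARHSP1 were the same under 5 scalings of library size. With RLE factors, upper-quartile factors, library size alone and library size without the mitochondrial genome, YBX2 stood between 0.83 and 0.86, YBX3 between −0.25 and −0.22 and CARHSP1 between −0.53 and −0.49 on the log2 scale. The median of all tested genes was −0.01 with TMM and 0.03 with library size alone.

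**Figure D2:**
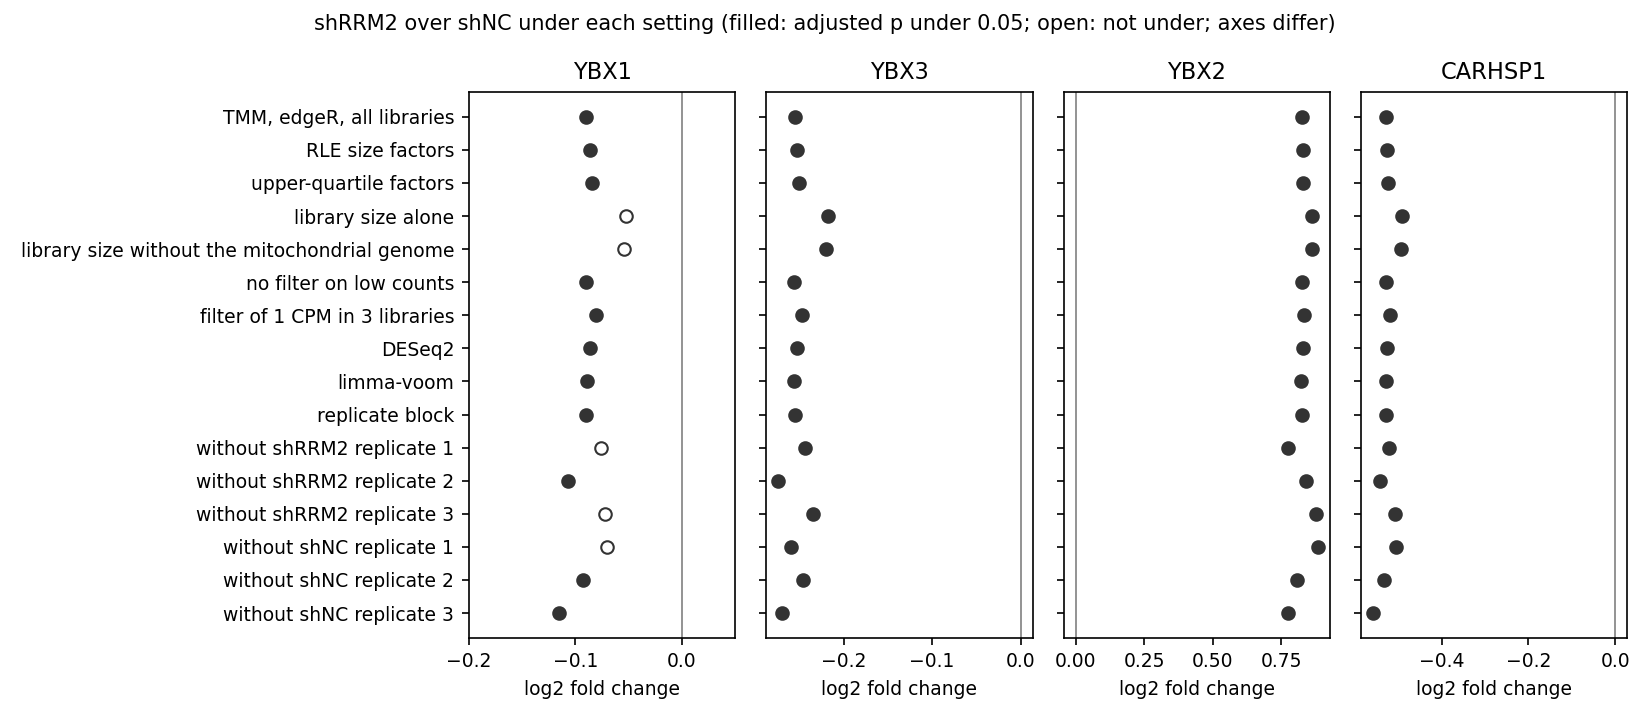
Log2 fold change of each detected member (horizontal axes, which differ between panels) under TMM scaling with all libraries and under 15 alternatives (rows). Filled points passed an adjusted p of 0.05; 5 YBX1 points are open, and every point of YBX2, YBX3 and CARHSP1 is filled.

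Ratios of counts within a library need no scaling at all. Per 100 YBX1 reads, YBX3 had 35.2, 35.1 and 34.9 reads in the shRRM2 libraries and 38.1, 40.0 and 40.0 reads in the shNC libraries. CARHSP1 had 6.91, 6.80 and 6.80 reads per 100 YBX1 reads in shRRM2 and 9.33, 9.27 and 9.21 in shNC. YBX2 had 1.12, 0.982 and 0.974 reads per 100 YBX1 reads in shRRM2 and 0.574, 0.534 and 0.520 in shNC. In each ratio the groups did not overlap. The groups of CPM did not overlap for 57.8% of all tested genes, so such a separation is common here. The log2 ratio to YBX1 differed by −0.17 for YBX3, −0.44 for CARHSP1 and 0.92 for YBX2, shRRM2 minus shNC. CARHSP1 against YBX3 differed by −0.27, so that CARHSP1 was lower relative to YBX3 too. All 6 pairs of members had an exact two-sided permutation p of 0.1, the smallest that 3 libraries against 3 can give, also after adjustment over the 6 pairs. The pairs share members, so they are not separate results.

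**Figure D3:**
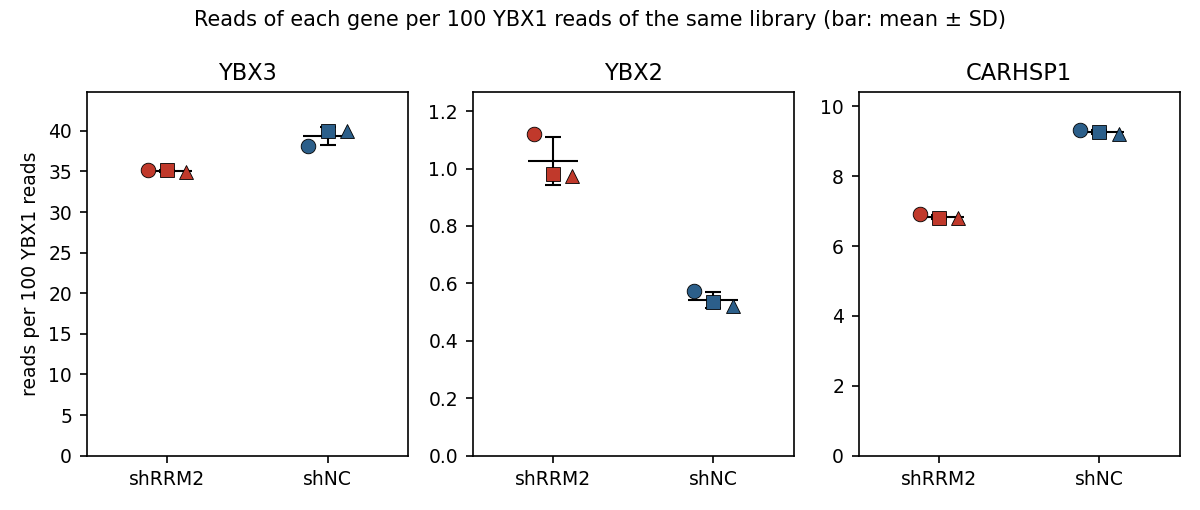
Reads of YBX3, YBX2 and CARHSP1 per 100 YBX1 reads of the same library (vertical axes, from 0, each on its own scale), with 3 shRRM2 and 3 shNC libraries as points and mean ± SD as bars. The groups do not overlap in any panel, a separation also seen in CPM for 57.8% of the tested genes.

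Within the Y-box genes, the make-up of the transcript pool differed by small amounts. Counted per length, YBX1 made up 76.5% ± 0.119 of the YBX1, YBX2 and YBX3 transcripts in shRRM2 and 74.7% ± 0.499 in shNC (SD, n = 3 each). YBX3 made up 22.8% ± 0.0730 in shRRM2 and 24.9% ± 0.520 in shNC. YBX2 was under 1 in 100 in both groups, at 0.752% ± 0.0596 in shRRM2 and 0.389% ± 0.0224 in shNC. The shares of both groups did not overlap for any of the 3 genes (exact two-sided permutation p = 0.1, the smallest possible). The 3 shares add up to the whole, so they are not separate results. In CPM the groups of 57.8% of all tested genes did not overlap either.

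Processed copies share sequence with their parent genes. YBX3P1, a copy of YBX3 on chromosome 16, had 69, 114 and 69 counts in shRRM2 and 92, 105 and 71 counts in shNC. The groups overlapped, and the log2 fold change came to −0.06 with an SE of 0.185 and an adjusted p of 0.802. Its GENCODE transcript was 95.3% identical to YBX3 over 1092 aligned bases, and 9.03% of its windows of 50 bases occurred unchanged in YBX3. YBX1 has 10 processed copies in GENCODE 29, of which YBX1P1 and YBX1P10 were 97.3% identical to it where aligned. Of the windows of 50 bases, 43.6% in YBX1P1 and 29.4% in YBX1P10 matched YBX1 exactly. The counts of these copies are not analysed here, and how reads with several matches were counted is not given in the sources used here.

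The genes whose pattern over the 6 libraries lay closest to each member were found by the root mean square distance between centred log2 CPM values. For YBX1, among 2486 other genes of at least 100 CPM, they were EIF1, a translation initiation factor, ARF1, a GTPase of the Golgi, and PARK7, at distances of 0.0108, 0.0108 and 0.0147. For YBX3 they were ANP32B, RPL24 and HNRNPR, at 0.0127 to 0.0153. Their log2 fold changes, between −0.27 and −0.26, are close to that of YBX3 because of how they were picked. For CARHSP1 they were COA4, ANKFY1 and EIF4G3, at 0.0126 to 0.0244. For YBX2 they were PHYHIP, PPP1R26-AS1 and EVPLL, at 0.0320 to 0.0696, a looser match at lower counts.

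Among other genes with cold-shock folds, 3 exonucleases were lower. CSDC2, another cold-shock domain gene, was near the limit of detection, with 11, 3 and 7 counts in shRRM2 and 8, 16 and 12 counts in shNC, and did not pass (adjusted p = 0.259). The exonucleases DIS3, DIS3L and DIS3L2, which carry cold-shock-like folds in front of their catalytic domain, fell, at −0.23, −0.65 and −0.62. DIS3L2, which degrades uridylated let-7 precursors, stood at 15.2, 13.0 and 15.6 CPM in shRRM2 and 22.6, 24.2 and 20.2 CPM in shNC (adjusted p = 2.28e-06). CIRBP and RBM3, RNA-binding genes induced by mild cold that have no cold-shock domain, were lower as well, at −0.62 (adjusted p = 4.11e-09) and −0.26 (adjusted p = 4.58e-08).

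Genes of proteins found with YBX1 on mRNA were largely lower. Of 18 measured partners, 2 rose, 15 fell and 1 did not pass, with a median log2 fold change of −0.23 beside −0.01 over all tested genes. Over all tested genes 26.0% were called higher and 26.1% lower. The number that rose was 1 with DESeq2 and without shRRM2 replicate 1, shRRM2 replicate 3, shNC replicate 1 or shNC replicate 2. NSUN2, the methyltransferase that makes the RNA 5-methylcytosine that YBX1 reads, stood at 407, 419 and 404 CPM in shRRM2 and 658, 644 and 648 CPM in shNC. Every shRRM2 library lay below every shNC library, and the log2 fold change came to −0.67 with an SE of 0.0293 and an adjusted p of 4.00e-19. Nucleolin (NCL) and SYNCRIP, RNA-binding proteins of the same particles, both fell by 0.59. G3BP2, a core protein of stress granules, went the other way, with 183, 181 and 197 CPM in shRRM2 against 105, 104 and 110 CPM in shNC (log2 fold change 0.82, adjusted p = 9.53e-18). Its paralog G3BP1 was lower at −0.26 (adjusted p = 3.48e-08), a pair chosen after their values were seen.

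Of 9 measured genes of kinases and ubiquitin ligases that act on YBX1, 0 rose, 5 fell and 4 did not pass, with a median of −0.34 beside −0.01 over all tested genes. The share called in either direction, 5 of 9, was near the 52.1% of all tested genes. All 5 calls were lower, beside 26.1% called lower among all tested genes. No set test was run, so this is no result about these enzymes as a group. RPS6KA3 (RSK2), a kinase of the family that phosphorylates YBX1 in its cold-shock domain, stood at 81.9, 77.3 and 80.8 CPM in shRRM2 and 109, 108 and 107 CPM in shNC (−0.43, adjusted p = 4.55e-10). RPS6KB1, the S6 kinase gene, was lower at −0.39. HACE1, a ubiquitin ligase described to act on YBX1, stood at 6.68, 5.94 and 4.81 CPM in shRRM2 and 10.8, 9.93 and 9.96 CPM in shNC (−0.82, adjusted p = 9.81e-06). RPS6KA1, of the same family as RPS6KA3, did not pass at 0.03 (adjusted p = 0.607), and was chosen after its value was seen. RPS6KA2 was below the filter, with at most 5 counts in a library.

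Genes described elsewhere as YBX1 targets moved in both directions. Of 18 measured, 8 rose, 6 fell and 4 did not pass, with a median of 0.07, beside 26.0% called higher and 26.1% called lower among all tested genes. The split moved with the scaling. Under library size alone 10 were called higher and 4 lower, where 4625 of 15866 tested genes were higher and 3611 lower. MYC fell to 271, 275 and 258 CPM in shRRM2, against 471, 471 and 457 CPM in shNC (−0.80, adjusted p = 3.55e-20). CCND1, the cyclin of the G1 phase, was lower at −0.49, and POLA1, a DNA polymerase gene, at −0.62. ABCB1, the multidrug transporter long linked to YBX1, rose to 20.2, 19.2 and 21.4 CPM in shRRM2, against 7.60, 7.42 and 8.32 CPM in shNC (1.38, adjusted p = 1.11e-12). The groups of both genes were well apart, in opposite directions, so the list did not move as one.

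The partners and described targets of YBX3 were also split. Of 10 measured, 3 rose, 5 fell and 2 did not pass, with a median of −0.14, against a background of 26.0% higher and 26.1% lower. SLC7A5, an amino acid transporter whose transcript YBX3 is described to bind, fell to 643, 612 and 630 CPM in shRRM2, against 843, 828 and 789 CPM in shNC (−0.38, adjusted p = 8.30e-13). Its heavy chain SLC3A2 was at −0.06 (adjusted p = 0.115), chosen after its value was seen. PCNA was lower at −0.35, and ARHGEF2 (GEF-H1), a junction-associated activator of RhoA, rose by 0.54 (adjusted p = 1.25e-09). CCND1 and PCNA are on the YBX1 list too.

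**Figure D4:**
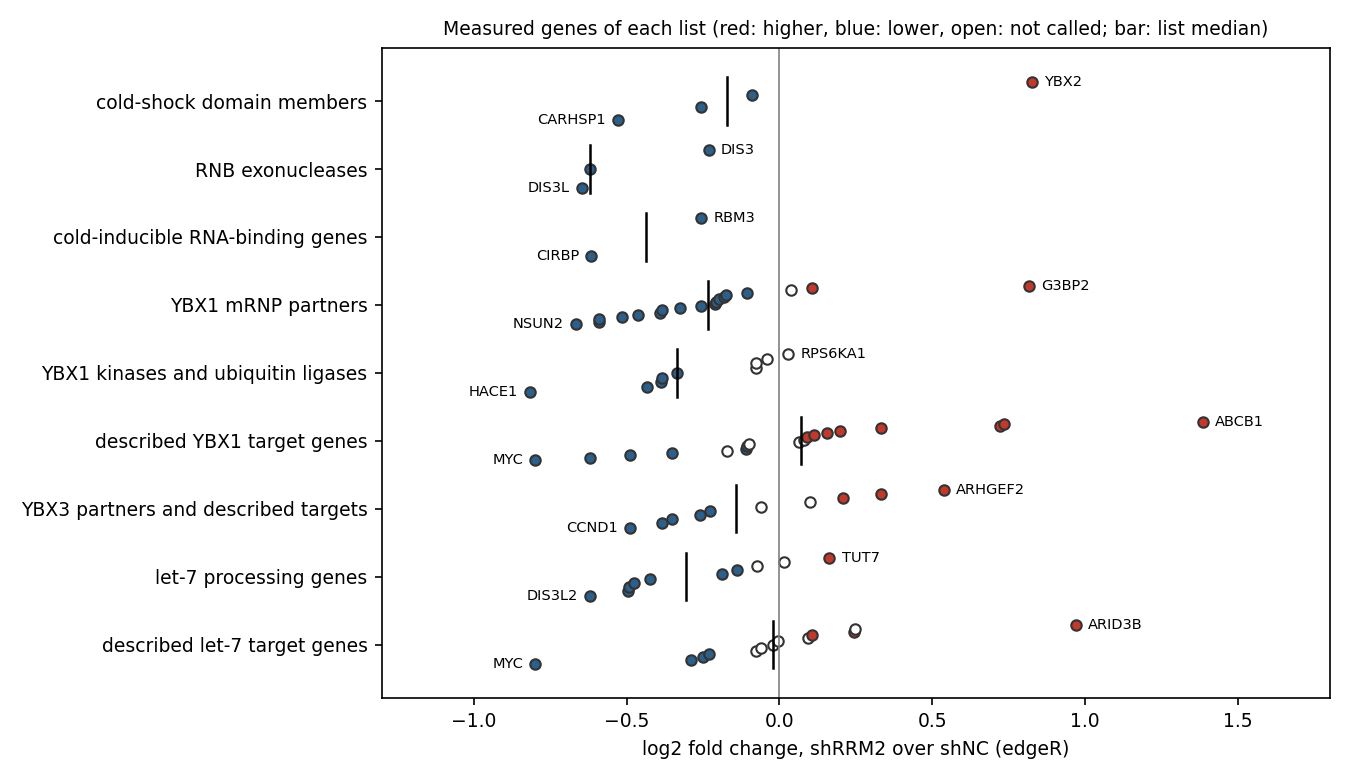
Log2 fold change, shRRM2 over shNC (horizontal axis), of each measured gene of 9 lists (rows), with the lowest and highest gene of a list named and the list median as a vertical bar. Red points were called higher, blue lower and open points were not called. The lists without described targets lie wholly or mostly left of 0. Their medians are −0.17 for the members, −0.62 for the exonucleases and −0.44 for the cold-inducible genes. They are −0.23 for the YBX1 partners, −0.34 for the YBX1 kinases and ligases and −0.31 for let-7 processing. The described target lists lie on both sides.

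LIN28 proteins recognise GGAG in the loop side of let-7 precursors, and all let-7 microRNAs share one seed. The sequences below show both features for let-7d and let-7i, the let-7 hairpin loci with the most counts here, and for let-7a-3, a hairpin without GGAG in that region. In the hairpins capitals mark GGAG after base 30, and in the mature microRNAs they mark the seed, bases 2 to 8 (RefSeq, GRCh38.p14, 5′ to 3′).
let-7d hairpin, chromosome 9: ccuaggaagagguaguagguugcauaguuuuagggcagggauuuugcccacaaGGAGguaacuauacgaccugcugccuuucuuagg
let-7i hairpin, chromosome 12: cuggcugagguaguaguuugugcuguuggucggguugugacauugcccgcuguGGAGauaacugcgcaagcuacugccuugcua
let-7a-3 hairpin, chromosome 22: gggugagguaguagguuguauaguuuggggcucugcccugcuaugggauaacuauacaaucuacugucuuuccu
let-7d-5p: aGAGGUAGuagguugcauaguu
let-7i-5p: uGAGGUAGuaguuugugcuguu
let-7a-5p: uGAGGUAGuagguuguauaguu
Of the 12 let-7 and miR-98 hairpins, 9 held GGAG there, and all 12 mature 5p entries shared the seed GAGGUAG. Mature microRNAs are not measured by this poly(A) protocol. The reads at the hairpin loci were few and are given as unscaled counts. At let-7d they were 3, 6 and 7 in shRRM2 and 11, 15 and 8 in shNC, which did not overlap but rest on few reads. In CPM, 57.8% of the tested genes had groups that did not overlap. At let-7i they were 1, 3 and 4 in shRRM2 and 0, 1 and 5 in shNC, with overlapping groups. The host gene MIRLET7IHG had 52, 34 and 31 counts in shRRM2 and 23, 66 and 70 in shNC, with overlapping groups.

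The genes that process let-7 or degrade its precursors were mostly lower. DIS3L2, counted above among the exonucleases, is on this list too. Of 10 measured, 1 rose, 7 fell and 2 did not pass, with a median of −0.31, where 26.0% of all tested genes were called higher and 26.1% lower. The number that rose was 0 with DESeq2 and without shRRM2 replicate 2, shRRM2 replicate 3, shNC replicate 1 or shNC replicate 2. XPO5, which exports the precursor from the nucleus, stood at 127, 126 and 134 CPM in shRRM2 and 177, 184 and 185 CPM in shNC (−0.49, adjusted p = 6.77e-13). DICER1, which cuts the precursor, and its partner TARBP2 were lower at −0.49 and −0.42, and DGCR8, the partner of DROSHA, at −0.48. The genes described as let-7 targets did not move one way, with 3 higher, 4 lower and 6 not passing among 13 measured and a median of −0.02. The share called, 7 of 13, was near the 52.1% of all tested genes. With library size alone 5 of them were called higher. ARID3B rose by 0.97 and CDC25A by 0.24, while NRAS was lower at −0.29. MYC is on this list as well as on that of YBX1.

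YBX2 and LIN28A are best known from germ cells and pluripotent cells, and most genes of those cells had no counts. Of 11 such genes 3 passed the filter. DDX4, NANOG, SOX2, PIWIL1, PRM1, PRM2 and DPPA4 had 0 counts in every library, and DAZL had 1 count in all. SALL4, a zinc finger factor of pluripotent cells, stood at 32.8, 32.2 and 35.6 CPM in shRRM2 and 11.7, 14.7 and 14.9 CPM in shNC (1.28, adjusted p = 8.61e-14). MOV10L1 had 0.566 to 1.31 CPM in shRRM2 and 0.217 to 0.790 CPM in shNC and did not pass (adjusted p = 0.0717), but did without shRRM2 replicate 1 or shNC replicate 3. POU5F1, which has close copies elsewhere in the genome, was at −0.54 (adjusted p = 0.0427), with overlapping groups, and lost its call under 9 of 15 alternatives, among them without shRRM2 replicate 1, shRRM2 replicate 3, shNC replicate 2 or shNC replicate 3.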

How the data were processed

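The deposited table holds raw read counts per NCBI Gene ID, made by the authors with fastp 0.23.4 and featureCounts on hg38, per the submitters' processing notes. The aligner, annotation release, and the strand and multi-mapping settings of the counting are not stated in these sources. Table columns carry the prefix si where the labels have sh, and were matched by gene name and number. Of 42902 IDs, 40120 matched a RefSeq symbol (GRCh38.p14); the rest held 1.25% of the counts and stayed in the tests.

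Genes were kept by filterByExpr, scaled by TMM and tested with edgeR 4.0.16 in R 4.3.3 (robust quasi-likelihood fit, group alone, two-sided, Benjamini-Hochberg over all tested genes). The SE is the log2 fold change over the square root of F. The edgeR test was checked on simulated counts in which few genes changed, in both directions. In these data 52.1% of the tested genes passed, so that check does not cover the choice of scaling. Copies were aligned with blastn 2.17.0. Intervals and the limit for a count of 0 cover counting or model error only. Alternatives were 4 other scalings, 2 other filters, DESeq2 1.42.0, limma-voom 3.58.1, a replicate block and leaving out each library. The members and lists were chosen with earlier results of these data known. Named genes were the members, RRM2, cold-shock and cold-inducible genes, member copies with at least 10 counts, the 4 called genes of each list with the smallest adjusted p (all where 4 or fewer were measured), and the 3 genes nearest each member in pattern. Some genes that meet this rule are not reported here. Genes named outside it are marked, fell below the filter (RPS6KA2), are copies compared by sequence alone, serve as cell type and germ cell checks, or lie at a locus described beside a member (SLC2A4 and LIN28B-AS1, which overlap a member, and the let-7 loci).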

Additional observations from a re-analysis of the deposited data

How the results depend on the processing

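YBX2, YBX3 and CARHSP1 kept their direction and passed under all 15 alternatives, and YBX1 kept its direction under all of them. YBX1 did not pass with library size alone (−0.0522, adjusted p = 0.102) or with library size without the mitochondrial genome (−0.0546, adjusted p = 0.0855). Leaving out 1 library moved YBX1 between −0.116 and −0.0707 (highest adjusted p = 0.0711), YBX2 between 0.77 and 0.88, YBX3 between −0.27 and −0.23 and CARHSP1 between −0.56 and −0.51. Over all tested genes it gave 3754 to 4031 higher and 3736 to 3944 lower, against 4119 and 4142 with all libraries. The log2 ratios of members within a library kept their direction in every case. Deviations of same-numbered libraries from their group means had correlations of −0.0208 to −0.00339. Differently numbered libraries gave −0.0158 to 0.0213. These values show no pairing by replicate number, but from 3 libraries per group they cannot exclude one. With the replicate block 4102 genes were higher and 4142 lower, and YBX1 was at −0.09 (adjusted p = 0.0120), YBX2 at 0.83, YBX3 at −0.26 and CARHSP1 at −0.53, so no call of a member changed. For the 55 other named genes, 780 of 822 values under alternatives kept their side of the threshold and 40 lost a call, among them values of EIF1, ARF1, PARK7, POU5F1 and EPCAM, and 2 gained one, both of MOV10L1. DESeq2, the scaling and single left-out libraries also moved the small counts of some lists, with examples given beside them. Counting error limits YBX2 most among the detected members, and LIN28A and LIN28B were not detectable at this depth.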
